A study of Mus musculus with 5 samples.

Results

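Levels of 10 endoderm genes, Afp, Alb, Ttr, Apoa1, Apoa2, Apob, Trf, Hnf4a, Fga and Fgb, were followed across 5 RNA libraries of embryonic mouse heart ventricle. They were chosen by name, as products of the embryonic liver and yolk sac, and are read as a measure of tissue next to the heart in each dissected pool. All 10 were among the 18307 genes of the RefSeq gene table, and 9 of them, all but Alb, were among the 13829 genes that passed the filter on low counts. The embryos were of the outbred CD-1 strain, and no mutation is stated. Each dam received 1 injection a day, the first at E6.5 and the last at E9.5, of 20 mg/kg caffeine (3 libraries) or of the vehicle, 0.9% NaCl (2 libraries), and ventricles were collected at E10.5. Per the labels' protocols, each library is a pool of ventricles from embryos that shared dams, and how many dams or embryos a pool holds is not given. The p-values below measure the spread between such pools.

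Deposited totals ran from 21713372 to 25048122 rounded counts per library. Heart muscle transcripts were abundant in each library: 11 genes listed for ventricular myocardium, among them Actc1, Myh7, Myl2 and Myh6, summed to 34082 to 41460 CPM. CPM are counts scaled to a common library size with TMM, a trimmed mean of M-values. This sum does not tell ventricle from atrium. The 10 endoderm genes summed to 15.6 to 163 CPM.

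The yolk sac wraps the early embryo, and its visceral endoderm secretes serum proteins and lipoproteins before the liver takes over. The liver bud grows from foregut endoderm into the septum transversum, directly behind the heart, and its hepatoblasts switch on many of the same genes under factors such as HNF4A, HNF1 and FOXA. Cardiomyocytes are not known as a main source of these proteins, although they can also make apolipoprotein B.

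Endoderm transcripts were most abundant in vehicle replicate 2, with Alb as the exception. Their summed level was 22.1 CPM in vehicle replicate 1 and 163 CPM in vehicle replicate 2, against 66.4, 38.3 and 15.6 CPM for caffeine replicates 1, 2 and 3. The vehicle pools lay on both sides of caffeine replicates 1 and 2, so the groups overlapped. All 9 tested members had their highest level in vehicle replicate 2, which was the highest library for 18.8% of all tested genes. Their lowest level was in caffeine replicate 3 for 6 members and in vehicle replicate 1 for 3. In such bulk pools, fewer cells of a type and less RNA per cell cannot be told apart.

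**Figure D1:**
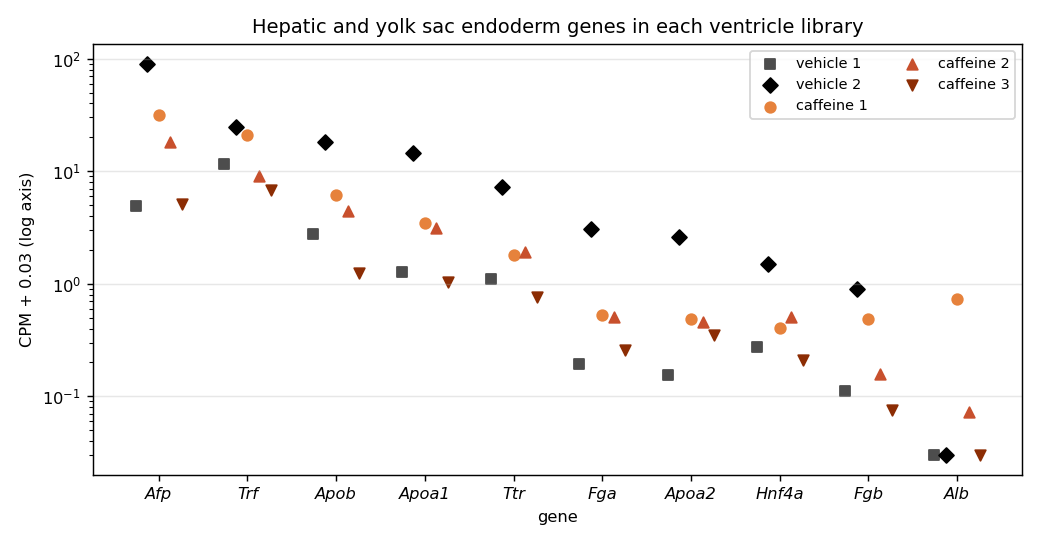
Level of each endoderm gene (x axis) in each library, as CPM + 0.03 on a log axis; each symbol is 1 library. Vehicle replicate 2 (black diamonds) is the highest point for every gene except Alb, whose highest point is caffeine replicate 1.

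Afp encodes alpha-fetoprotein, the main serum carrier protein of the embryo, made by yolk sac endoderm and hepatoblasts. Its counts were 118 and 1984 with vehicle, replicate 1 first, and 760, 425 and 112 with caffeine in replicate order, or 4.86 and 90.4 CPM against 31.6, 18.3 and 5.08 CPM. By CPM the vehicle pools stood at the top and at the bottom, and the caffeine pools between them. Vehicle replicate 2 was 18.6 times vehicle replicate 1 (95% exact binomial interval 15.4 to 22.6, for counting error only). GENCODE M21 places an antisense gene, Gm43449, over part of Afp, and reads of the pair cannot be told apart without strand. Only 4 of the 13829 tested genes, Afp included, had a span of log2 CPM over the 5 libraries at least as wide as the 4.19 of Afp.

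Alb encodes albumin, the adult counterpart of alpha-fetoprotein and the defining secreted product of hepatocytes. Neither vehicle library had a count of it, and caffeine replicates 1, 2 and 3 had 17, 1 and 0. The library with the most Afp thus had no Alb, and nearly all Alb counts came from 1 caffeine pool. In caffeine replicate 1 Alb made up 2.19% of the Alb and Afp counts together (95% exact Clopper-Pearson interval 1.28 to 3.48%). Vehicle replicate 2 had 0 Alb beside 1984 Afp counts, which allows a share of up to 0.151%, below that interval. In vehicle replicate 1 and caffeine replicate 3 the same limit was 2.54% and 2.68%, above the 2.19% of caffeine replicate 1. At their Afp counts, a share like that of caffeine replicate 1 was thus within the limit. Set against a floor of 3 counts over both vehicle libraries, the 18 caffeine counts are at least 4.17-fold higher relative to the library totals, a bound that rests on caffeine replicate 1, since 1 count remains without it. Alb was thus at 0 or 1 count in 4 of 5 libraries. Which cells gave the counts of these genes was not tested, and the word hepatic is used here as a name of the list only.

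Alb and Afp are neighbours on chromosome 5 (mm10, plus strand), Alb from 90460889 to 90476603 and Afp from 90490714 to 90508907, with 14110 bases between them. Hnf4a lies on chromosome 2 (163547188 to 163572907, plus strand), and Fga (83026153 to 83033617, plus strand) and Fgb (83042305 to 83049790, minus strand) lie 8687 bases apart on chromosome 3. RefSeq promoter sequence (GRCm38.p6) was used for 8 of the 10 members, at 10 start sites. None was used for Ttr and Trf, so the member windows counted below leave both out, and their promoters were not searched. The 250 bases before each start were searched on both strands for GTTAAT and GTTAAC, the core letters of sites for HNF1, a factor of liver and visceral endoderm. Of the 10 member windows 5 held at least 1 of them, against 8.75% of 32851 promoter windows of the same length. These 5 are shown because they held the letters. The letters did not follow the profile over libraries described here. Apoa1, Apoa2 and Apob shared that profile and had no match, while Alb had a match and did not share it. The windows are chr5:90460620-90460869 for Alb, chr5:90490464-90490713 for Afp, chr2:163546905-163547154 for Hnf4a, chr3:83025903-83026152 for Fga and chr3:83049864-83050113 on the minus strand for Fgb. Each is given 5′ to 3′ on its gene's strand, with the HNF1 letters in capitals (ATTAAC is GTTAAT on the other strand).
Alb: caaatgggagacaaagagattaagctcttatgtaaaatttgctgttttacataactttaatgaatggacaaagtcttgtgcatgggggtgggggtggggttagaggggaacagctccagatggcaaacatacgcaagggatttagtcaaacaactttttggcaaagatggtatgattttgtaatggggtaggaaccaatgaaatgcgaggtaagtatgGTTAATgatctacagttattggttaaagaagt
Afp: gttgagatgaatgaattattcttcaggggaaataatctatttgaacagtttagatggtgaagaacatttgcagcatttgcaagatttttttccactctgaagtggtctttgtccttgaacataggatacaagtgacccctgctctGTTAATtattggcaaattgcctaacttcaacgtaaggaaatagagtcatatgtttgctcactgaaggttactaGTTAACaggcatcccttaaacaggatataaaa
Hnf4a: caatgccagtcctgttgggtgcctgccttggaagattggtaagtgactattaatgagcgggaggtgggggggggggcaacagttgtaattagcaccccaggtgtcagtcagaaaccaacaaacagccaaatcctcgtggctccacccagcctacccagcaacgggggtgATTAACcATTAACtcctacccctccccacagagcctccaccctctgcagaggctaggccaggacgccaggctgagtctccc
Fga: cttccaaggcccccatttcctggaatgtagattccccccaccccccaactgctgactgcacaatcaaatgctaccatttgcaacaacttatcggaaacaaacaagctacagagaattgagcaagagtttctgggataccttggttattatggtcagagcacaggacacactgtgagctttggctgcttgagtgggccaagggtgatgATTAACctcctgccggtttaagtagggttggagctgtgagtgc
Fgb: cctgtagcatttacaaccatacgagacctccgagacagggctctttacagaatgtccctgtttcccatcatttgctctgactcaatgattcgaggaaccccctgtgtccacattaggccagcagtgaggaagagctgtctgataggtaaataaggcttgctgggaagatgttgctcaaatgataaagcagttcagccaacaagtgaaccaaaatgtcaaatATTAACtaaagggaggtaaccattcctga
Distances are counted from the start that each window adjoins. For Alb, Hnf4a and Fgb that start differs from the gene start in the deposited coordinates printed above. The Alb match begins 32 bases before its window's start, and 1 of the Afp matches, GTTAAC, also 32 bases before its own. Both windows held the letters, so they do not separate these neighbours. Afp has a further match, GTTAAT, at 105 bases. In Hnf4a a pair of matches stands at 81 and 74 bases, and in Fga and Fgb single ones at 43 and 29 bases. The FOXA letters TGTTTGC were found in windows of Afp, Alb, Apoa1 and Apob, 4 of 10, against 4.3% of all windows, and TGTTTAC in 1, of Apoa2, against 3.17%. The HNF4 letters CAAAGTCCA were in none of the 10 and in 0.384% of all windows. Such matches describe letters in these windows only.

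Ttr encodes transthyretin, which carries thyroid hormone and retinol-binding protein, and is an early product of visceral endoderm and liver. GENCODE M21 places an antisense gene, Gm16090, at its 5′ end, so the doubt about strand applies to Ttr as well. Its counts were 26 and 158 with vehicle and 43, 44 and 16 with caffeine, or 1.07 and 7.20 CPM against 1.79, 1.89 and 0.726 CPM. Vehicle replicate 2 stood apart from the other 4 libraries, which ran from 0.726 to 1.89 CPM. Trf encodes transferrin, the iron carrier of serum, which is also made outside endoderm. At 281 and 539 counts with vehicle and 508, 212 and 149 with caffeine (11.6 and 24.6 CPM against 21.1, 9.11 and 6.76 CPM), it had the narrowest spread of the 9. Vehicle replicate 2 was 2.12 times vehicle replicate 1 for Trf (95% exact binomial interval 1.83 to 2.46), and caffeine replicate 1 was nearly as high as vehicle replicate 2.

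Trf counts also depended on the annotation. The Ensembl table gave it 151, 344, 238, 111 and 75.7 counts in the same order, and gave Gm20425, a protein-coding model on the same strand that spans Trf (chromosome 9, 103190208 to 103230307), 224, 317, 440, 213 and 134. The RefSeq table has no row of that name, so the Trf count is uncertain. Counts of Afp, Alb, Ttr, Apoa1, Apoa2, Hnf4a and Fga were the same in both gene tables, and those of Apob and Fgb differed by at most 1 count.

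Apoa1 and Apoa2 encode the main proteins of high-density lipoprotein, and Apob the structural protein of the lipoproteins that yolk sac and liver export. Apoa1 had 30 and 317 counts with vehicle and 82, 72 and 22 with caffeine (1.24 and 14.4 CPM against 3.41, 3.09 and 0.999 CPM). Apoa2 had 3 and 57 counts against 11, 10 and 7 (0.124 and 2.60 CPM against 0.457, 0.430 and 0.318 CPM), and Apob had 66 and 399 against 146, 103 and 27 (2.72 and 18.2 CPM against 6.06, 4.43 and 1.23 CPM). For all 3, vehicle replicate 2 was the highest pool and caffeine replicates 1 and 2 followed. Between the vehicle pools the ratio was 11.7 for Apoa1 (95% exact binomial interval 8.02 to 17.6), 21.0 for Apoa2 (6.84 to 105) and 6.68 for Apob (5.14 to 8.81), so the interval of Apoa1 overlaps those of Apoa2 and of Apob.

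Fga and Fgb encode the alpha and beta chains of fibrinogen, the clotting precursor. Fga had 4 and 67 counts with vehicle and 12, 11 and 5 with caffeine (0.165 and 3.05 CPM against 0.498, 0.473 and 0.227 CPM), and Fgb had 2 and 19 against 11, 3 and 1 (0.0824 and 0.865 CPM against 0.457, 0.129 and 0.0454 CPM). Fgb was thus relatively high in caffeine replicate 1, with 91.7 Fgb counts per 100 Fga counts there against 28.4 in vehicle replicate 2, on few counts. Fga had a pair of RefSeq transcripts. In vehicle replicate 2 an estimated 46.5 of the 67 counts were assigned to NM_010196, and in vehicle replicate 1 nearly all of the 4 to NM_001111048. At so few counts the split between overlapping transcripts is an estimate of the authors' counting that no test here covers. Hnf4a, the nuclear receptor that drives many hepatic and visceral endoderm genes, had 6 and 32 counts with vehicle and 9, 11 and 4 with caffeine (0.247 and 1.46 CPM against 0.374, 0.473 and 0.181 CPM). The factor was lowest and highest in the same libraries as most of its tested companions, at a level near the filter.

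Per kilobase of exon, Afp had the highest mean level over the 5 libraries, 14.6 CPM per kb, followed by Trf at 5.32, Apoa1 at 4.48, Ttr at 2.14, Apoa2 at 1.46, Apob at 0.468, Fga at 0.293, Hnf4a at 0.125, Fgb at 0.0829 and Alb at 0.0736. Every neighbouring pair in that order had ranges over libraries that overlapped. Within libraries the order was steadier: Apoa1 exceeded Ttr, Ttr exceeded Apoa2, and Apoa2 exceeded Apob in 5 of 5 libraries. Afp exceeded Trf in 4 of 5, though in caffeine replicate 3 they were nearly equal, at 2.464 and 2.460 CPM per kb. In vehicle replicate 1 Trf was the higher, at 4.21 against 2.36 CPM per kb. These levels of Trf use its RefSeq counts, which are uncertain as described above. Its Ensembl count in vehicle replicate 1 was 151, against 281 in RefSeq.

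The design asks whether caffeine given to the dam changed these transcripts in the ventricle pools. No member passed at an adjusted p of 0.05 with edgeR's quasi-likelihood test, nor with DESeq2 or limma-voom. Over all 13829 genes 0.00723% passed (1 gene, Peg3as, an antisense RNA that is not a member), and none was higher in caffeine. With DESeq2 0.13% of all genes passed and with limma-voom 0.00723%. No member had an unadjusted p under 0.05 with edgeR, against 5.2% of all genes, and with DESeq2 2 did, Ttr and Fga, against 4.53% of all genes with DESeq2. In no tested member did the libraries of the groups separate, while they did in 20.4% of all genes. All 9 tested members had negative log2 fold changes, caffeine minus vehicle, as did 47.0% of all genes. Since they share a profile over libraries, these 9 signs are not separate pieces of evidence. The median over the 10 members was -1.39, with Alb at its fitted value or at its bound, against 0.01 over all genes tested.

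The fold changes had wide errors. Afp averaged 47.6 ± 60.5 CPM with vehicle (SD, n = 2) and 18.3 ± 13.2 CPM with caffeine (SD, n = 3). Its log2 fold change was -1.37 (SE 1.53, edgeR adjusted p = 0.999). Ttr had -1.48 (SE 0.82) and Trf -0.55 (SE 0.60). Among the lipoprotein genes, Apoa1 had -1.63 (SE 1.08), Apoa2 -1.72 (SE 1.01) and Apob -1.41 (SE 0.99). Fga had -1.97 (SE 1.04), Fgb -1.09 (SE 0.99) and Hnf4a -1.27 (SE 0.69). The adjusted p was 0.999 for each. Of the RefSeq transcripts of members, 0 passed with edgeR, as did 0% of the 18418 transcripts tested.

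The direction rested on 1 vehicle pool. Without vehicle replicate 2, which leaves a single vehicle library that is assumed to vary like the caffeine libraries, all 9 log2 fold changes turned positive and the median became 1.11. Afp then had 1.89 (SE 1.13), Apoa2 1.64 (SE 0.90), Fgb 1.30 (SE 1.41), Fga 1.23 (SE 0.89) and Apoa1 0.99 (SE 0.67). Apob had 0.50, Hnf4a 0.44, Ttr 0.43 and Trf 0.07. Without vehicle replicate 1 the median was -2.25, from -2.91 for Fga to -0.99 for Trf among the 9, and 7 members had an unadjusted p under 0.05, against 4.23% of all genes in that fit. Its single vehicle library is the pool in which all 9 members were highest. None passed adjustment in either fit, against 0% of all genes without vehicle replicate 1 and 0.0566% without vehicle replicate 2.

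**Figure D2:**
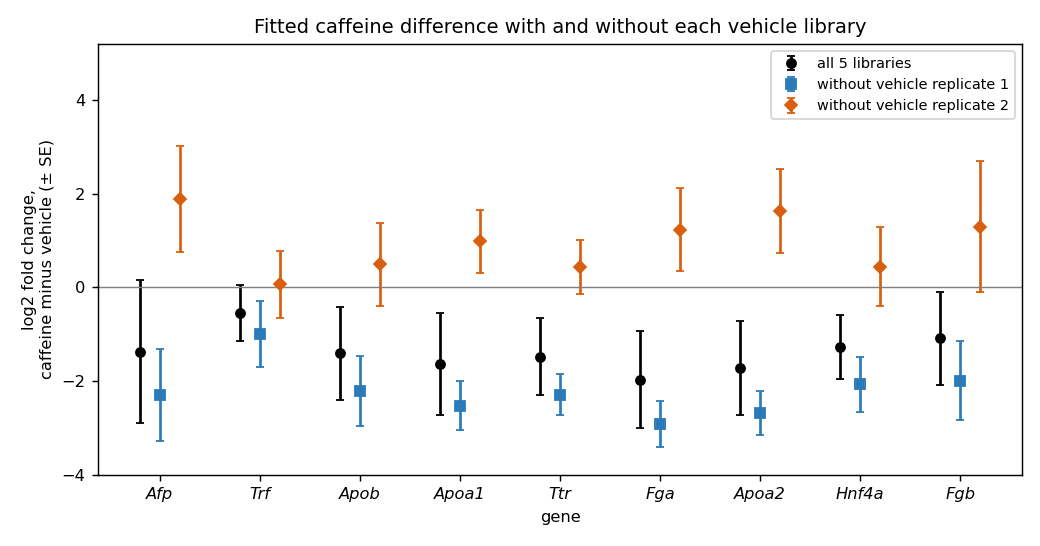
Log2 fold change, caffeine minus vehicle, with its SE for the 9 tested genes (x axis), from all 5 libraries (circles), without vehicle replicate 1 (squares) and without vehicle replicate 2 (diamonds). All 9 lie below 0 with all libraries and above 0 without vehicle replicate 2.

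The make-up of the endoderm counts also differed between pools. Afp took 55.5% of the summed counts of the 10 genes in vehicle replicate 2 (95% Wilson interval 53.9 to 57.2%) and 22.0% in vehicle replicate 1 (18.7 to 25.7%), with 47.5%, 47.6% and 32.7% in caffeine replicates 1, 2 and 3. Trf moved the other way, with 15.1% and 52.4% in vehicle replicates 2 and 1, and 31.8%, 23.8% and 43.4% in caffeine. Per 100 Afp counts there were 238 Trf counts in vehicle replicate 1, 133 in caffeine replicate 3 and 27.2 in vehicle replicate 2. With the RefSeq counts, used for these shares, Trf was thus the largest part in the pools with the lowest summed level. This depended on the annotation. In the Ensembl table Trf had 151 counts in vehicle replicate 1, against 118 for Afp. In caffeine replicate 3 it had 75.7 counts there, against 112 for Afp.

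With Trf set aside the pools were more alike. Afp then made up 46.3% of the counts in vehicle replicate 1 (95% Wilson interval 40.3 to 52.4%), 65.4% in vehicle replicate 2 (63.7 to 67.1%), and 69.7% (66.9 to 72.3%), 62.5% (58.8 to 66.1%) and 57.7% (50.7 to 64.5%) in caffeine replicates 1, 2 and 3. The interval of vehicle replicate 1 lay below those of vehicle replicate 2 and caffeine replicates 1 and 2. Apoa1 counts per 100 Afp counts were 16.0 in vehicle replicate 2, 10.8 in caffeine replicate 1, 16.9 in caffeine replicate 2, 19.6 in caffeine replicate 3 and 25.4 in vehicle replicate 1.

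**Figure D3:**
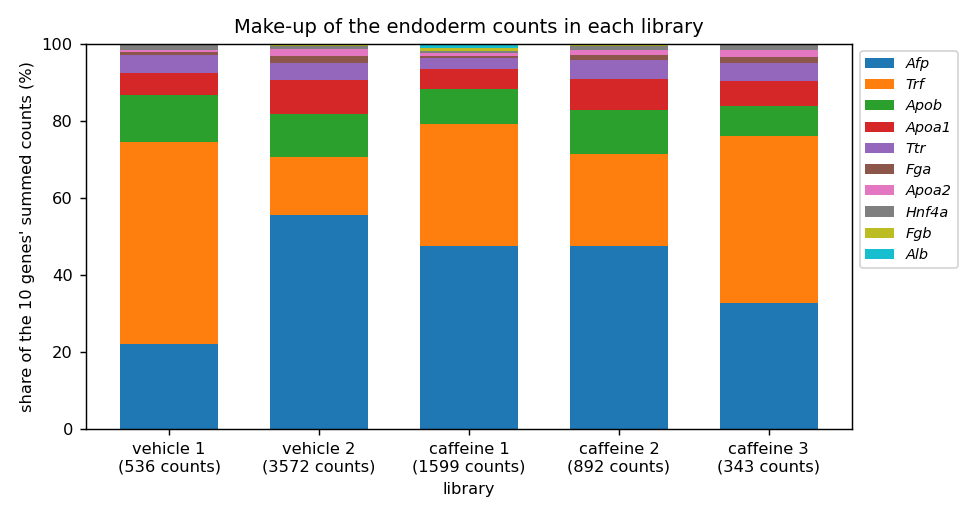
Share of each gene (colours) in the summed RefSeq counts of the 10 genes, in percent, for each library (x axis, with the summed count). Afp is the largest part in vehicle replicate 2 and in caffeine replicates 1 and 2, and Trf in vehicle replicate 1 and caffeine replicate 3.

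These genes varied widely between libraries. The span of log2 CPM over the 5 libraries, with a prior count of 2 that narrows it at low counts, had a median of 3.64 in the 9 tested members and 0.46 in all genes tested. It ran from 4.19 for Afp to 1.85 for Trf, and 1.97% of all genes had a span at least as wide as that of Trf. As a plain ratio of highest to lowest CPM, Apoa2 (21.0) and Fgb (19.1) exceeded Afp (18.6). The biological coefficient of variation, edgeR's estimate of the relative spread within groups, had a median of 0.708 in the members and 0.137 in all genes, with 1.07 for Afp and 0.426 for Hnf4a. These figures describe the 5 pools.

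Of the 12 genes with the most similar profile, 8 were in the marker lists described further on, which hold 85 of the 13820 other tested genes. Those lists were chosen with earlier results of these data known, so this overlap is not a separate result. Likeness was measured as the root mean square difference, over the 5 libraries, between a gene's centred log2 CPM and the mean centred profile of the 9 members. Of 13820 other genes, the 12 nearest were Apom (0.13), S100g (0.29), Apoa4 (0.30), Nr1h5 (0.33), Rbp4 (0.37), Serpinf2 (0.43), Fgg (0.45), Cubn (0.48), Cldn2 (0.49), Prss8 (0.49), Hist1h2ao (0.50) and Cdh1 (0.50), where the median over all genes was 1.13. Of the members themselves 7 lay within the distance of the last of these, Afp (0.56) and Trf (0.64) lying outside.

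Several of these genes carry related roles. Apom encodes an apolipoprotein of high-density lipoprotein, and had 5 and 43 counts with vehicle and 12, 9 and 4 with caffeine. Apoa4, a lipoprotein gene of the Apoa1 cluster, had 14 and 120 against 53, 48 and 12 counts. Rbp4, the retinol carrier that binds transthyretin, had 39 and 218 against 57, 90 and 31 counts, and Fgg, the third fibrinogen chain, 3 and 34 against 14, 4 and 5. Likeness to the members' profile chose these genes, so their excess in vehicle replicate 2 is not a separate result.

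Cubn encodes cubilin, the receptor through which yolk sac endoderm takes up maternal proteins, and had 59 and 209 counts with vehicle and 88, 97 and 58 with caffeine. S100g, a calcium-binding protein of absorptive epithelia, had 6 and 47 against 22, 17 and 3 counts. Cdh1, which encodes the epithelial cadherin, had 12 and 36 against 29, 15 and 9 counts. Serpinf2, an inhibitor of plasmin, Nr1h5, a nuclear receptor, Cldn2, a tight junction gene, and Prss8, a membrane protease, had 18 to 35 counts in vehicle replicate 2 and at most 19 in any other library. Hist1h2ao is 1 of many near-identical histone genes and its count is uncertain. Of the 12, 8 stand in the marker lists described next, and 4 (Nr1h5, Cldn2, Prss8 and Hist1h2ao) do not.

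**Figure D4:**
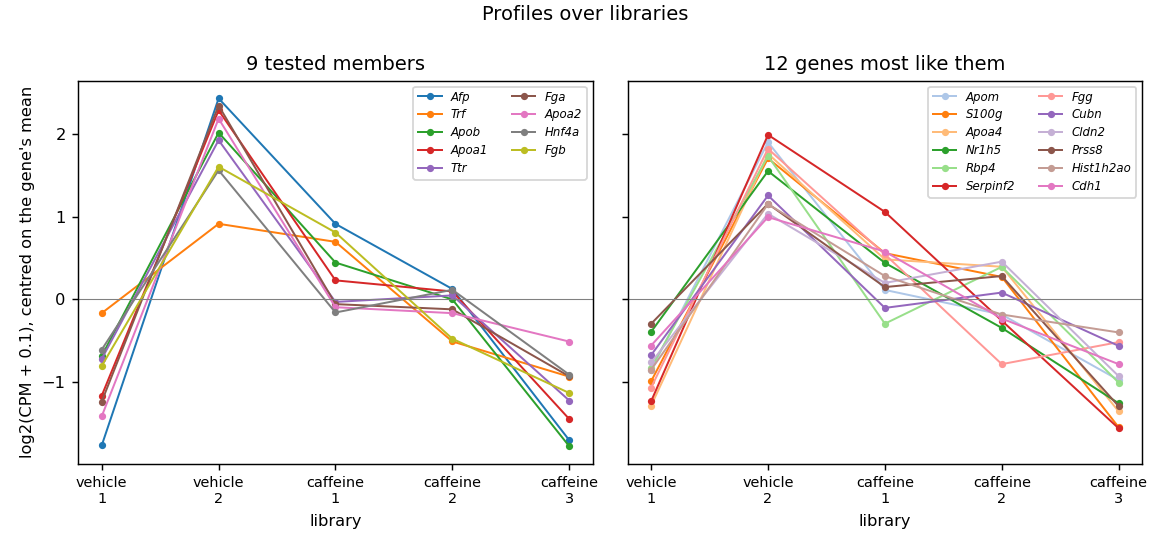
Log2(CPM + 0.1) of each gene, centred on its own mean over libraries, for the 9 tested members (left) and the 12 genes most like them (right); lines join the values of 1 gene and imply no order of libraries. Both panels peak in vehicle replicate 2.

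The 10 lists of related or neighbouring tissue markers held 85 tested genes. Of these 0 passed at an adjusted p of 0.05 with edgeR, DESeq2 or limma-voom. With edgeR 6 (7.06%) had an unadjusted p under 0.05, against 5.2% of all genes. Log2 fold changes were negative for 37 of the 85 and for 47.0% of all genes. Neighbours of members in their gene clusters had 2 tested genes of 5 in the table, Apoa4 (log2 fold change -0.89, SE 1.01) and Fgg (-1.30, SE 0.93). Their list summed to 0.741 and 7.11 CPM with vehicle and 2.82, 2.28 and 0.772 CPM with caffeine, highest in vehicle replicate 2 as for the members, with the 2 lowest libraries close together. Apoa5 and Apoc3, which lie with Apoa1, and Gc, which lies near Alb and Afp, had 0 or 1 count in every library, and were chosen for mention after their values were seen.

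Other plasma proteins and apolipoproteins were mostly too low to test: 11 of 30 in the table passed the filter, 9 of them with negative log2 fold changes (median -0.23). By level the first were Apoe, Mttp, Rbp4 and F10. Apoe, a lipoprotein gene expressed in many cell types, had 160 and 143 CPM with vehicle and 152, 141 and 145 CPM with caffeine, with no excess in vehicle replicate 2. Mttp, which loads lipid onto apolipoprotein B, had 16.8 and 25.5 against 17.8, 18.4 and 17.6 CPM, a narrower gap between the vehicle pools than that of Apob. F10, a clotting factor gene, had 2.97 and 2.05 against 1.95, 2.49 and 2.04 CPM.

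Of 16 transcription factors of liver and endoderm other than Hnf4a, 7 were tested, and their median log2 fold change was 0.06, with 3 below 0. Of the 7, 2 were highest in vehicle replicate 2. The most abundant, Gata4, Gata6, Prox1 and Hhex, are also genes of the heart or its endothelium. Gata4 had 349 and 354 CPM with vehicle and 357, 354 and 390 CPM with caffeine. Prox1 had 28.4 and 55.9 against 63.4, 47.1 and 43.8 CPM, lowest in vehicle replicate 1. The pioneer factors Foxa1, Foxa2 and Foxa3, named after their values were seen, had at most 6 counts in any library.

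Yolk sac visceral endoderm uptake and extraembryonic genes were split. Of 10, 8 were tested (median -0.08, 4 below 0, 1 with an unadjusted p under 0.05). Of the 8, 4 were highest in vehicle replicate 2, among them Cubn and S100g, which were named above for their likeness to the members. The most abundant of the list went otherwise. Cited1 had 699 and 533 CPM with vehicle and 688, 603 and 615 CPM with caffeine, lowest in vehicle replicate 2. Dab2 had 76.4 and 91.6 against 109, 82.0 and 95.6 CPM, highest in caffeine replicate 1. Lrp2, which encodes megalin, the partner of cubilin, had 3.996 and 8.02 CPM with vehicle and 9.63, 5.89 and 4.22 CPM with caffeine. Rhox5, a homeobox gene of extraembryonic tissue, had 10.4 and 10.9 CPM with vehicle and 5.15, 6.88 and 3.27 CPM with caffeine. Its groups did not overlap, as in 20.4% of all genes (log2 fold change -1.06, SE 0.27, edgeR adjusted p = 0.517). Its vehicle pools were alike, where those of the 9 tested members differed by 2.12 to 21.0 times.

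Epithelial and foregut genes had 8 tested of 11 in the table, a median of -0.05, and 2 with an unadjusted p under 0.05. The keratin genes Krt8, Krt18 and Krt19, which the epicardium also expresses, led by level. Krt18 had 25.2 and 28.3 CPM with vehicle and 23.6, 32.2 and 31.2 CPM with caffeine, with no excess in vehicle replicate 2. Of the 8 tested genes, 2 were highest in vehicle replicate 2, Cdh1, described above, and Cldn6, a claudin gene chosen for mention after its values were seen, with 0.783 and 1.55 CPM with vehicle and 0.706, 0.559 and 0.499 CPM with caffeine.

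Septum transversum and proepicardial genes, from the mesoderm into which the liver bud grows, were all tested. Of these, 11 of 11 had positive log2 fold changes (median 0.18), where 47.0% of all genes had negative ones. An unadjusted p under 0.05 with edgeR was found for 1 of them, against 5.2% of all genes. Signs of genes in 1 list may not be separate pieces of evidence. Wt1, a factor of the epicardium, had 38.6 and 48.1 CPM with vehicle and 50.04, 56.5 and 53.5 CPM with caffeine (0.30, SE 0.15, edgeR adjusted p = 0.982). Tbx18 had 102 and 121 against 143, 128 and 105 CPM, and Upk3b 130 and 147 against 201.5, 144 and 124 CPM. The list summed to 655 and 788 CPM with vehicle and 782, 797 and 750 CPM with caffeine, with vehicle replicate 1 lowest.

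As a sum, erythroid genes of circulating blood were lowest in vehicle replicate 2, where the endoderm genes were highest. They summed to 14350 and 8364 CPM in vehicle replicates 1 and 2 and to 11986, 8836 and 13827 CPM for caffeine replicates 1, 2 and 3 (12 tested, median 0.13, 0 with an unadjusted p under 0.05). The embryonic globin gene Hbb-y had 4312 and 2441 against 3982, 2591 and 3786 CPM. Not every gene followed the sum: Hbb-bh1 was lowest in another library, as were Hba-a2, Gata1 and Tfrc, which were named after their values were seen. Macrophage genes summed to 49.97 and 46.8 CPM with vehicle and 67.8, 54.4 and 50.9 CPM with caffeine, highest in caffeine replicate 1 (9 tested, median 0.73, 1 with an unadjusted p under 0.05). Of the 9, 6 were highest in that pool. Lyz2, the most abundant, had 36.3 and 32.2 CPM with vehicle and 48.0, 43.5 and 35.2 CPM with caffeine. Lyve1 was lowest in caffeine replicate 1, with 7.29 and 7.93 against 5.52, 5.97 and 7.40 CPM. Csf1r, the macrophage growth factor receptor, had 1.69 and 1.91 CPM with vehicle and 5.02, 1.504 and 2.41 CPM with caffeine.

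Atrial and sinus venosus genes summed to 2168 and 1886 CPM with vehicle and 1311, 1857 and 1923 CPM with caffeine, lowest in caffeine replicate 1 (6 tested, median 0.01, 1 with an unadjusted p under 0.05). Most of that sum was Myl7, an atrial myosin light chain that the early ventricle also expresses, with 2045 and 1742 against 1177, 1703 and 1734 CPM. Genes listed for ventricular myocardium (11 tested, median -0.15, 0 with an unadjusted p under 0.05) summed to 41460 and 37724 CPM with vehicle and 35315, 34848 and 34082 CPM with caffeine. The part of tissue carried along at dissection in any of these differences was not tested.

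**Figure D5:**
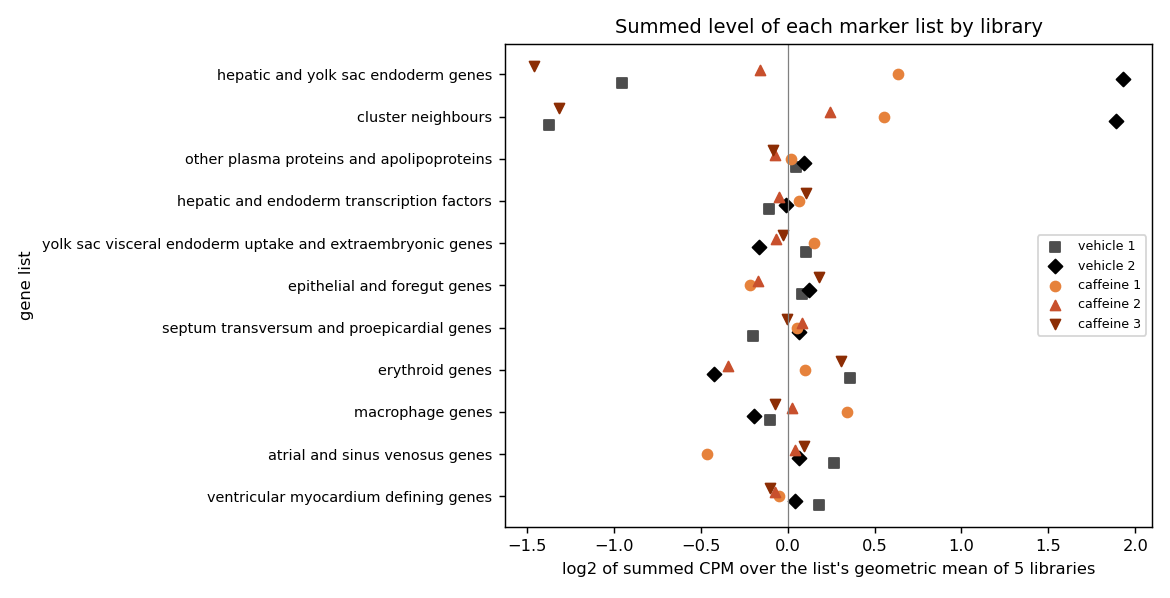
Summed CPM of each marker list (y axis) in each library, as log2 of the ratio to the list's geometric mean over the 5 libraries; each symbol is 1 library. The endoderm genes and the neighbours of members in their gene clusters span the widest range, with vehicle replicate 2 at the right, and the erythroid list has vehicle replicate 2 at the left.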

How the data were processed

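RNA of E10.5 mouse ventricle pools was sequenced after TruSeq library preparation, per the labels' protocols. The authors deposited estimated counts per gene and per transcript on RefSeq and Ensembl release 71 annotations, per the file headers, not scaled between libraries. TopHat and Partek, and the builds mm10 and GRCm38, appear in the submitters' processing notes. No source used here gives their roles or versions, the read length or the use of strand. Printed gene ends are the deposited stop minus 1.

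Estimated counts were rounded, filtered with filterByExpr, scaled by TMM (factors 0.970 to 1.02) and tested with edgeR 4.0.16 in R 4.3.3 by its quasi-likelihood test (robust, two-sided). P-values were adjusted over all 13829 genes by the Benjamini-Hochberg method, with a threshold of 0.05. The SE is the size of the log2 fold change divided by the square root of the F statistic. The fit was tested on simulated counts. Alternatives used DESeq2 1.42.0, limma 3.58.1 and other settings described at the end. Exon lengths came from GENCODE M21. Totals of 21713372 to 25048122 rounded counts make 3 counts worth 0.120 to 0.138 CPM; intervals cover counting error only. The members and lists were chosen with earlier results of these data known. The members, up to 4 genes of each list by mean CPM and the 12 nearest genes are named, with any others stated as such. The replicate numbers were not taken to pair pools, since groups share only 2 numbers and no label ties them.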

Additional observations from a re-analysis of the deposited data

How the results depend on the processing

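No endoderm gene passed at an adjusted p of 0.05 under any alternative run, the lowest adjusted p being 0.479 and the highest 1.00. Outside the fits that leave out a library, 69 of 70 log2 fold changes of members kept their sign over 7 alternatives, the exception being Afp with the replicate block (0.033, SE 2.99). That block, the replicate number as a covariate, passed 52 genes and no member, with a members' median of -0.57. Same-numbered libraries deviated together by a correlation, across genes, of -0.02 for number 1 and 0.13 for number 2. Of the fits without 1 library, only that without vehicle replicate 2 turned signs, those of 9 of 10 members. Over these fits the members' median ran from -2.25 to 1.11, Afp from -2.30 to 1.89, Ttr from -2.29 to 0.43, Apoa1 from -2.52 to 0.99, Apoa2 from -2.67 to 1.64, Apob from -2.21 to 0.50, Trf from -1.18 to 0.067, Hnf4a from -2.06 to 0.44, Fga from -2.91 to 1.23 and Fgb from -2.32 to 1.30. With limma-voom the members' median was -0.81, and under RLE scaling, no scaling, no filter, DESeq2 or Ensembl counts it lay between -1.41 and -1.33.

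Over all genes, 1 passed, Peg3as. The count was 6 with no filter on low counts, 18 with DESeq2, 2 with Ensembl counts (Gm13341 and Gm14287), and 0 to 18 without 1 library: leaving out vehicle replicate 1 gave 0, vehicle replicate 2 gave 8, caffeine replicate 1 gave 18 and caffeine replicate 2 gave 2 (Meg3 and Peg3as). With the members' mean log2 CPM per library as a covariate 3 passed, Lars2, Peg3as and Rn45s. These names were chosen after their values were seen, and the causes of these differences were not tested. Depth limits the low members: at 1 to 19 counts per library Fgb had an interval of 2.53 to 93.0 for the ratio of vehicle replicates 2 and 1.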
